A study of Mus musculus with 17 samples.

Results

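The genes described here are the cytochrome P450 enzymes of mouse lung and the genes of the aryl hydrocarbon receptor (AHR) axis. They were taken as every gene symbol of the deposited table that starts with Cyp and a digit, plus Ahr, Ahrr, Tiparp and Por. This gave 54 of the 18262 genes listed, of which 50 are Cyp genes. Cyp1a2 was not analysed here. RNA sequencing values were deposited for 16 lungs of C57BL/6 mice, 4 in each of 4 groups, and for 1 library of the injected cells. The tumor_GEMy mice carried cells of 1 rhabdomyosarcoma line, M3-9-M, that express ffluc-mCherry, 500000 placed in the gastrocnemius muscle, and received 8000000 IL12-GEMy cells by vein on day 12, and their lungs were taken on day 15. The tumor_untreated mice carried the same tumor and received no cells. The naive_GEMy mice had no tumor and received the IL12-GEMy cells 3 days before the lungs were taken. The naive_untreated mice had neither. IL12-GEMy cells are bone marrow myeloid cells made to secrete interleukin-12, and the library of the cell product comes from marrow of naive C57BL/6 mice after lentiviral transduction and culture with SCF, FLT3L and IL-6. The labels give no age. Nor do they say that each library is its own mouse, so the p-values speak for the spread among libraries, which may be technical.

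Cytochrome P450 enzymes are heme proteins that oxidise drugs, pollutants, sterols, retinoids and fatty acids, and the microsomal ones take their electrons from the reductase that Por encodes. AHR is a receptor in the cytosol that binds planar aromatic compounds, enters the nucleus with its partner ARNT and turns on Cyp1a1 and Cyp1b1, and also Ahrr and Tiparp, whose products restrain it. In lung, P450 enzymes are known from club cells of the airways, alveolar type 2 cells and the endothelium.

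AHR and ARNT bind a core written GCGTG on one strand and CACGC on the other, so the RefSeq promoter windows of the AHR target genes are shown with that core in capitals. Each window runs 5′ to 3′ on the gene's strand over 300 bases of GRCm38.p6, with 250 before the transcription start and 50 from it.
Cyp1a1 (chr9:57697363-57697662, plus strand): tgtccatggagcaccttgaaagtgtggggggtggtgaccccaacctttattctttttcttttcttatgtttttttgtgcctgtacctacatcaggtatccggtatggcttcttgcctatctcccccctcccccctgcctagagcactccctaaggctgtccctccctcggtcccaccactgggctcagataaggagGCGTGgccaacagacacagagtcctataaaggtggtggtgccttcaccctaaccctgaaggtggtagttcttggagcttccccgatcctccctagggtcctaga
Cyp1b1 (chr17:79715012-79715311, minus strand): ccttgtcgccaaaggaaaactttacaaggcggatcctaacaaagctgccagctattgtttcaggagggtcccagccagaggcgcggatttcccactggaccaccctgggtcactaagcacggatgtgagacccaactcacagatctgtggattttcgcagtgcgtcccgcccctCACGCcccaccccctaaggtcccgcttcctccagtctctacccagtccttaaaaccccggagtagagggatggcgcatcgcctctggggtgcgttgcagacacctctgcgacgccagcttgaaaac
Ahrr (chr13:74292282-74292581, minus strand): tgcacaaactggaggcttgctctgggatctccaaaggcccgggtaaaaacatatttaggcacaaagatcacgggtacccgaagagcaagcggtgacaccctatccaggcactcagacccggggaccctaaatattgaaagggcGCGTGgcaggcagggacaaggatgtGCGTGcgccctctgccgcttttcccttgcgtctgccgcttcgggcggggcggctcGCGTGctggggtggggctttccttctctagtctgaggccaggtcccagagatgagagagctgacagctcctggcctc
Tiparp (chr3:65528197-65528496, plus strand): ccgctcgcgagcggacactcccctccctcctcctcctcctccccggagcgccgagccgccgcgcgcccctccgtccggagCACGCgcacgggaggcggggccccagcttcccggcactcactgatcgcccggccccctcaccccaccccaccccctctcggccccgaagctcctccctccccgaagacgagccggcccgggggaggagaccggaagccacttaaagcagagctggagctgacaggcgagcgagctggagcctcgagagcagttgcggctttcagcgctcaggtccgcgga
The Cyp1a1, Cyp1b1 and Tiparp windows hold 1 match each, and the Ahrr window holds 3. A match is common: both strands together gave at least 1 in 10639 of 32851 promoter windows (32.4%), and in 16 of the 46 windows found for members (34.8%). Of the 54 members, 41 had a RefSeq window, and Ahr had none. The matches describe the letters of these windows only.

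Values are FPKM (fragments per kilobase of gene and 1000000 assigned reads), where the length used was the genomic span with introns, so single genes are compared by FPKM only between samples. A sum over marker genes is likewise compared only between samples, and the genes of highest FPKM weigh most in it. RPM is reads per 1000000 assigned reads. The lungs held 27566837 to 36815040 assigned reads and the product 31111306, and libraries of 1 group correlated at 0.973 to 0.997. Group differences were tested with limma on log2(FPKM + 0.5), which understates the change of low genes, over the 10284 genes with at least 0.5 FPKM in 4 lungs, with Benjamini-Hochberg adjustment and a threshold of 0.05. Of the 54 members 22 were tested this way. The other 14 that reached 0.5 RPM in 4 lungs were tested on log2(RPM + 0.5) among 15422 genes and are named as RPM tests. The remaining 18, among them Cyp26a1, Cyp17a1 and Cyp4f14, stayed at or below 0.745 RPM in every lung and were not tested. No member entered a test through 1 group alone.

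Per kilobase of exon, the highest member over the 16 lungs was Cyp2f2, the club cell enzyme that activates naphthalene, at a mean level of 1619 reads per 1000000 and exon kilobase. Cyp4b1, which activates 4-ipomeanol, followed at a level of 288. Cyp2b10, a target of the receptor CAR in liver, was at a level of 108 and Por at 93.8. Cyp2a5, which oxidises coumarin and nicotine, was at a level of 36.7, and Cyp2s1, an epithelial enzyme outside the liver, at 35.0. Ahr stood at a level of 17.9 and Cyp1a1 at 9.42, while Ahrr stood at 0.0549. The 4 hepatocyte markers that the table lists, of 7 sought, summed to 0.0722 to 0.260 FPKM over all lungs. Exons of Ahr, Tiparp, Cyp2f2, Cyp2s1, Cyp4f18, Cyp51, Cyp2a4, Cyp2t4, Cyp2u1 and the pair Cyp4x1 and Cyp4x1os overlap an annotated gene on the other strand (Gm48236 for Ahr, 4931440P22Rik for Tiparp, Zfp961 for Cyp4f18). Those of Cyp4v3 and Cyp11a1 overlap a gene on the same strand. Whether the counting used strand is not given in the sources used here, so their reads may include some of the partner's. Reads of near-identical genes such as Cyp2a4 and Cyp2a5, or Cyp4a12b and its relatives, may have been divided between them, so these values are uncertain.

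**Figure D1:**
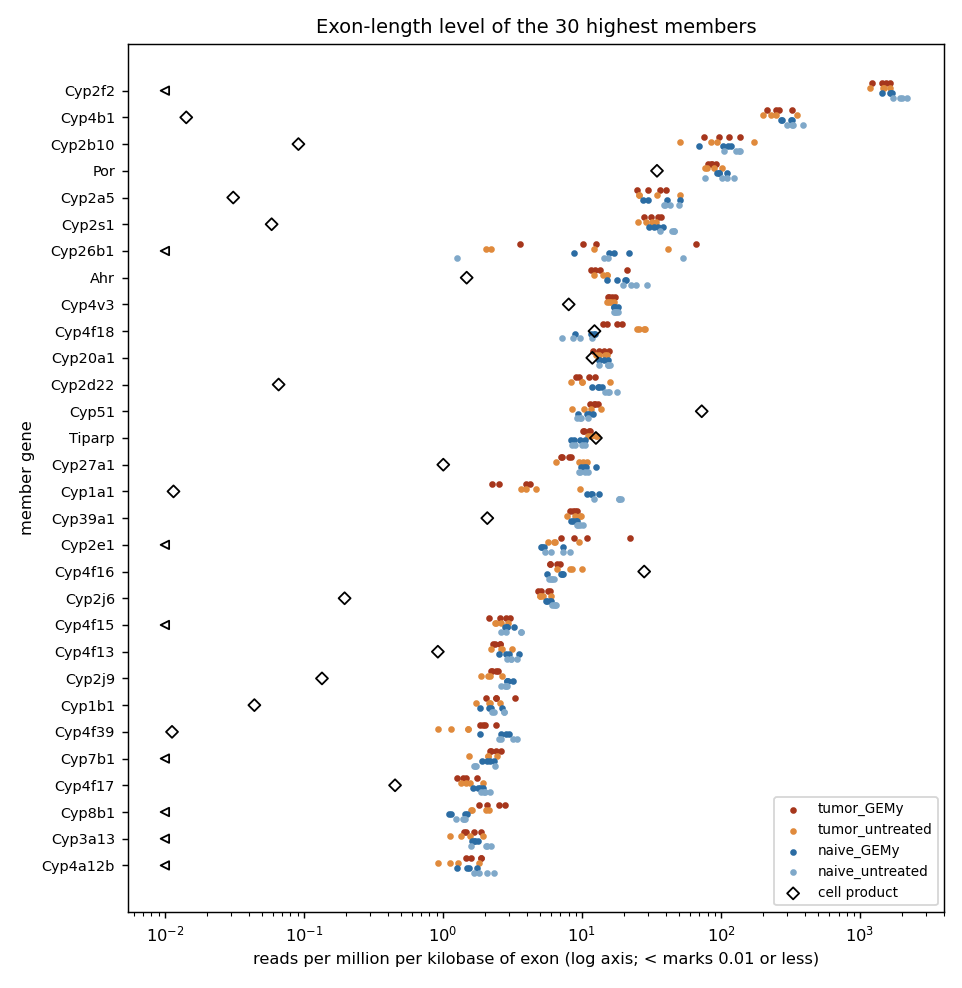
Level of the 30 highest members in reads per 1000000 and kilobase of exon, on a log axis. Each colored point is 1 lung, rows of points within a gene are the 4 groups, open diamonds are the single cell product library, and open triangles mark values of 0.01 or less. Cyp2f2 lies above all other members in every lung, and Cyp51 and Cyp4f16 lie higher in the product than in any lung.

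The first comparison asks what carrying the leg tumor did to these genes in the lungs of untreated mice. Cyp1a1 and Ahr were lower in tumor_untreated lungs, together with the CYP2 enzymes Cyp2f2, Cyp2s1 and Cyp2d22. Cyp4f18, Cyp4f16 and Tiparp were higher. Of the 22 members tested on FPKM, 4 rose and 7 fell. Of all genes tested, 16.9% rose and 27.2% fell, so the members' counts lie near the background. Their median log2 fold change was -0.16, against -0.048 for all genes. Of the 14 members tested on RPM, 2 rose and 5 fell, against 14.7% and 26% of all genes tested on RPM.

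Cyp1a1 (chr9:57687928-57703824, plus strand), the enzyme by which AHR activity is usually read, showed the largest fall of the 36 members tested. It had 1.69, 0.822, 0.637 and 0.692 FPKM in tumor_untreated lungs, against 3.24, 3.23, 2.12 and 3.37 FPKM in naive_untreated lungs. Every tumor_untreated lung was below every naive_untreated lung, and 1 of the 4, at 1.69 FPKM, stood above the other 3. The log2 fold change was -1.29 ± 0.18 (SE), adjusted p = 5.22e-05 (limma), with group means of 0.960 ± 0.493 and 2.99 ± 0.581 FPKM (SD, n = 4 each). Endothelial cells are a known site of Cyp1a1 in lung. The 7 endothelial markers summed to 404 to 484 FPKM in tumor_untreated lungs and 399.6 to 503 FPKM in naive_untreated lungs, and 4 of 7 passed as lower. The log2 ratio of Cyp1a1 to that sum was -9.40 to -8.16 in tumor_untreated lungs and -7.58 to -6.95 in naive_untreated lungs. Most of that sum was Cldn5, which averaged 369.6 ± 32.6 FPKM in tumor_untreated and 348 ± 42.4 FPKM in naive_untreated lungs and did not pass (limma adjusted p = 0.520), so the ratio is in effect one to Cldn5. Among the 4 markers that fell, Kdr averaged 9.34 ± 0.694 FPKM in tumor_untreated and 13.5 ± 1.08 FPKM in naive_untreated lungs (log2 -0.50, SE 0.075, adjusted p = 9.03e-05, limma), and it was named, like Cldn5, after its values were seen. In bulk lung, fewer cells of a type and less RNA per cell cannot be told apart.

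Ahr (chr12:35497979-35534989, minus strand), the receptor itself, had 2.04, 2.36, 2.53 and 2.53 FPKM in tumor_untreated lungs, against 3.31, 3.75, 4.93 and 4.07 FPKM in naive_untreated lungs. The groups did not overlap. The log2 fold change was -0.65 ± 0.14 (SE), adjusted p = 0.00192 (limma).

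Tiparp (chr3:65528447-65555518, plus strand), an AHR target whose product modifies the receptor and dampens it, moved the other way. It had 2.02, 1.78, 1.87 and 2.07 FPKM in tumor_untreated lungs and 1.61, 1.43, 1.68 and 1.36 FPKM in naive_untreated lungs, with no overlap between the groups. Its log2 fold change was 0.27 ± 0.067 (SE), adjusted p = 0.00455 (limma). Cyp1b1 (chr17:79706941-79715061, minus strand), another AHR target, had 1.57, 1.55, 1.24 and 1.84 FPKM in tumor_untreated lungs and 1.66, 1.96, 1.99 and 1.63 FPKM in naive_untreated lungs. These ranges overlapped, at a log2 fold change of -0.18 ± 0.11 (SE), adjusted p = 0.219 (limma). Ahrr (chr13:74211118-74292331, minus strand), the repressor that competes with AHR for ARNT, had 0.483, 0.584, 0.544 and 0.616 RPM in tumor_untreated lungs and 0.537, 0.511, 0.598 and 0.303 RPM in naive_untreated lungs. Its log2 fold change was 0.11 ± 0.13 (SE), adjusted p = 0.540 (limma, RPM). The calls for Cyp1a1, Ahr and Tiparp held under each of the 24 alternatives run.

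Por (chr5:135689145-135735326, plus strand), the electron donor of the microsomal enzymes, had 8.87, 7.78, 6.65 and 6.92 FPKM in tumor_untreated lungs and 9.69, 8.85, 6.66 and 10.7 FPKM in naive_untreated lungs. The ranges overlapped, and the log2 fold change was -0.22 ± 0.12 (SE), adjusted p = 0.127 (limma). It passed the threshold without naive_untreated 3 (log2 -0.35, limma adjusted p = 0.00861) and without tumor_untreated 1 (log2 -0.30, limma adjusted p = 0.0444).

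**Figure D2:**
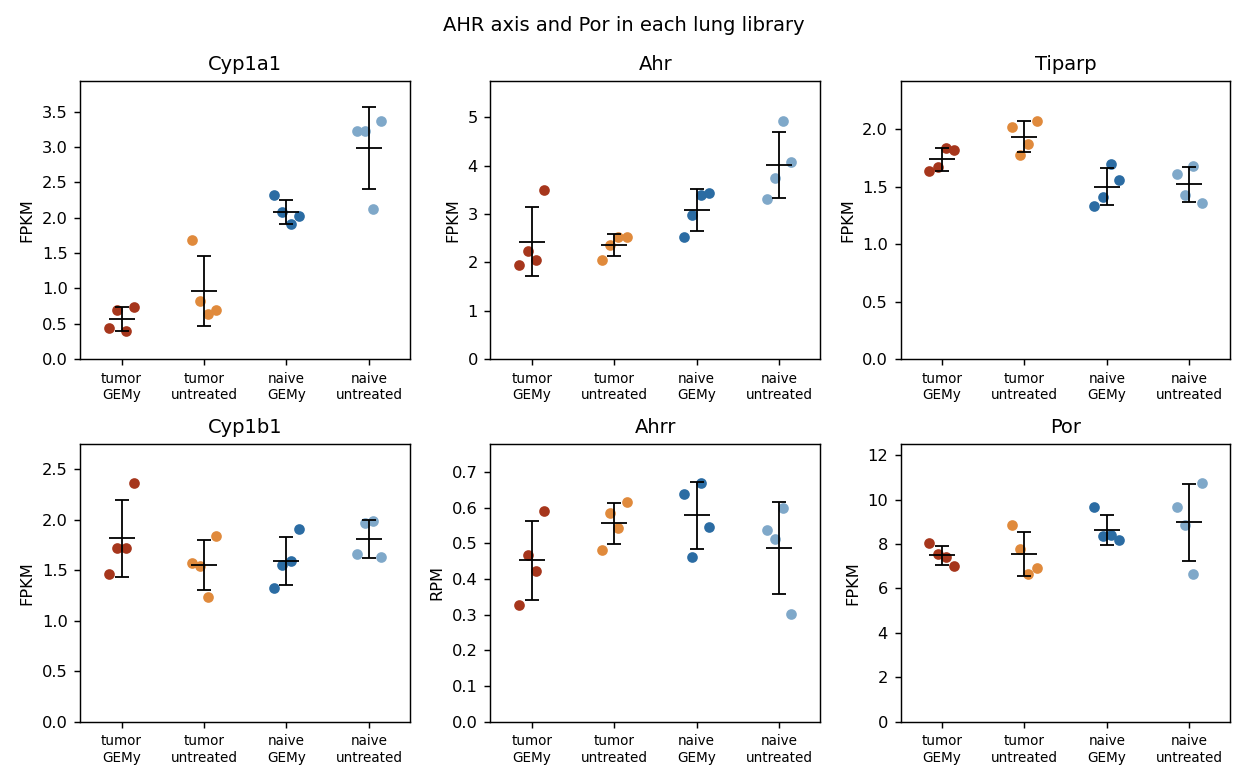
Level of the AHR axis genes and Por in each lung, in FPKM (Ahrr in RPM). Points are single libraries, the horizontal mark is the group mean and the bar 1 SD (n = 4). Cyp1a1 lies at or below 1.69 FPKM in all 8 lungs of tumor-bearing mice and at or above 1.92 FPKM in all 8 naive lungs. Cyp1b1 and Ahrr overlap between all groups.

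Among the airway and drug-metabolising enzymes of the CYP2 and CYP3 families, the genes that passed the test on FPKM all fell. Cyp2f2 had 242, 215, 175 and 219 FPKM in tumor_untreated lungs and 288, 294, 254 and 323 FPKM in naive_untreated lungs, a log2 fold change of -0.45 ± 0.11 (SE), adjusted p = 0.00399 (limma). Cyp2s1 had 12.0, 11.1, 10.1 and 8.92 FPKM in tumor_untreated lungs and 15.6, 16.0, 12.7 and 16.1 FPKM in naive_untreated lungs (log2 -0.50, SE 0.11, adjusted p = 0.00163, limma). The groups did not overlap for either gene. Cyp2d22, a mouse relative of human CYP2D6, had 6.34, 4.05, 3.99 and 3.34 FPKM in tumor_untreated lungs and 5.84, 6.21, 6.26 and 7.12 FPKM in naive_untreated lungs. The highest of the tumor_untreated lungs reached into the naive_untreated range, and the log2 fold change was -0.51 ± 0.14 (SE), adjusted p = 0.00780 (limma). Cyp2j6 fell by 0.14 (limma adjusted p = 0.0165), a small change that did not pass under median-of-ratios scaling (adjusted p = 0.0753). Cyp2j6 was named after its values were seen, as were Cyp2j9, Cyp3a13 and Cyp4f17 below.

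The other high members of these families did not pass. Cyp2a5 ranged over 6.68 to 13.2 FPKM in tumor_untreated lungs and 10.1 to 13.0 FPKM in naive_untreated lungs (log2 -0.36, SE 0.21, adjusted p = 0.184, limma). Cyp2b10 ranged over 3.67 to 12.6 FPKM in tumor_untreated lungs and 7.61 to 9.91 FPKM in naive_untreated lungs (log2 -0.42, SE 0.26, adjusted p = 0.211, limma). In both genes 1 tumor_untreated lung stood above every naive_untreated lung, and it was the library that was also highest for Cyp1a1. Without it the log2 fold changes were -0.56 for Cyp2a5 and -0.71 for Cyp2b10 (limma adjusted p = 0.0257 and 0.0132). Of the members tested on RPM, Cyp2ab1, a little studied member, had 2.47, 4.15, 5.80 and 3.91 RPM in tumor_untreated lungs and 1.68, 1.87, 1.86 and 1.58 RPM in naive_untreated lungs, a log2 fold change of 0.98 ± 0.25 (SE), adjusted p = 0.00602 (limma, RPM). Cyp3a13 fell by 0.38 (limma adjusted p = 0.0338) and Cyp2j9 fell by 0.33 (limma adjusted p = 0.00944), both on RPM. The Cyp3a13 call failed in 7 of 23 alternatives, among them those without tumor_untreated 2 or 3 or naive_untreated 1, 2 or 4 (adjusted p up to 0.124), and that of Cyp2j9 under median-of-ratios scaling (adjusted p = 0.0532).

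Club cell markers also fell in this comparison. Of the 5 tested, of 6 sought, 5 were lower in tumor_untreated lungs, and the 6 summed to 4970.1 to 6579 FPKM in tumor_untreated lungs and 7373 to 7855 FPKM in naive_untreated lungs. The log2 ratio of Cyp2f2 to that sum, a measure chosen after its values were seen like the ratio for Cyp1a1, was -4.83 to -4.67 in tumor_untreated lungs and -4.86 to -4.60 in naive_untreated lungs. The ratio overlapped between the groups, and most of the sum was Scgb1a1, at 5561 ± 699 FPKM in tumor_untreated and 7239.6 ± 224 FPKM in naive_untreated lungs. Alveolar type 2 markers were lower as well, for 5 of 6, and summed to 3788 to 4888 FPKM in tumor_untreated lungs and 5721 to 6276 FPKM in naive_untreated lungs. The part of either cell type in the falls of Cyp2f2, Cyp2s1 and Cyp2d22 was not tested.

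The CYP4 family, whose members hydroxylate the ends of fatty acids and eicosanoids, went both ways. Cyp4f18 (chr8:71988482-72009626, minus strand), which inactivates leukotriene B4 in mouse neutrophils, had 2.51, 2.17, 2.27 and 2.45 FPKM in tumor_untreated lungs, against 0.630, 0.856, 0.758 and 1.04 FPKM in naive_untreated lungs. Every tumor_untreated lung was above every naive_untreated lung, and the log2 fold change of 1.12 ± 0.10 (SE), adjusted p = 3.89e-07 (limma) was the largest rise of the members tested. Cyp4f16 had 1.33, 1.65, 2.02 and 1.70 FPKM in tumor_untreated lungs and 1.16, 1.20, 1.23 and 1.28 FPKM in naive_untreated lungs, again without overlap (log2 0.33, SE 0.083, adjusted p = 0.00459, limma). Cyp4f39, which hydroxylates very long fatty acids of the skin barrier, had 3.29, 4.35, 4.35 and 2.65 RPM in tumor_untreated lungs and 9.06, 7.47, 7.17 and 9.69 RPM in naive_untreated lungs. It fell by 1.10 without overlap (SE 0.16, limma adjusted p = 5.5e-05, RPM).

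Of the other CYP4 genes, Cyp4b1 ranged over 19.7 to 34.2 FPKM in tumor_untreated lungs and 29.1 to 38.4 FPKM in naive_untreated lungs. It passed narrowly (log2 -0.41, SE 0.15, adjusted p = 0.0385, limma) and failed in 9 of 24 alternatives, among them those without tumor_untreated 2, 3 or 4 or naive_untreated 1, 2 or 4 (adjusted p up to 0.137). Cyp4a12b had 4.34, 3.05, 2.68 and 2.22 RPM in tumor_untreated lungs and 4.00, 4.36, 5.59 and 4.95 RPM in naive_untreated lungs (log2 -0.57, SE 0.16, adjusted p = 0.00830, limma, RPM). Cyp4f17 fell by 0.32 (limma adjusted p = 0.0317, RPM), but its call failed in 8 of 23 alternatives, among them those without tumor_untreated 2, 3 or 4 or naive_untreated 1, 2 or 3 (adjusted p up to 0.106). Neutrophil markers rose for 6 of 6 and summed to 1236 to 2248 FPKM in tumor_untreated lungs and 59.2 to 92.0 FPKM in naive_untreated lungs. The log2 ratio of Cyp4f18 to that sum was -9.84 to -9.09 in tumor_untreated lungs and -6.71 to -6.15 in naive_untreated lungs, so the sum of the markers differed by more than the gene did. The part of neutrophils in its rise was not tested.

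Among the sterol, bile acid and steroid enzymes, Cyp8b1, known from bile acid synthesis in liver, had 2.04, 1.58, 2.16 and 1.63 FPKM in tumor_untreated lungs and 1.41, 1.45, 1.39 and 1.24 FPKM in naive_untreated lungs. The groups did not overlap (log2 0.32, SE 0.11, adjusted p = 0.0272, limma), but the call did not hold without tumor_untreated 1 or 3 or naive_untreated 4 (limma adjusted p = 0.0612, 0.0876 and 0.0762). Cyp11a1, which starts steroid synthesis from cholesterol, had 2.41, 1.72, 1.27 and 4.13 RPM in tumor_untreated lungs and 0.573, 1.70, 1.20 and 1.04 RPM in naive_untreated lungs. Its call (log2 0.77, SE 0.27, adjusted p = 0.0295, limma, RPM) did not hold without tumor_untreated 4 or naive_untreated 1 or 4 (adjusted p = 0.12, 0.103 and 0.0606). Cyp51, which removes a methyl group from lanosterol in cholesterol synthesis, did not pass (log2 0.11, SE 0.094, adjusted p = 0.351, limma).

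**Figure D3:**
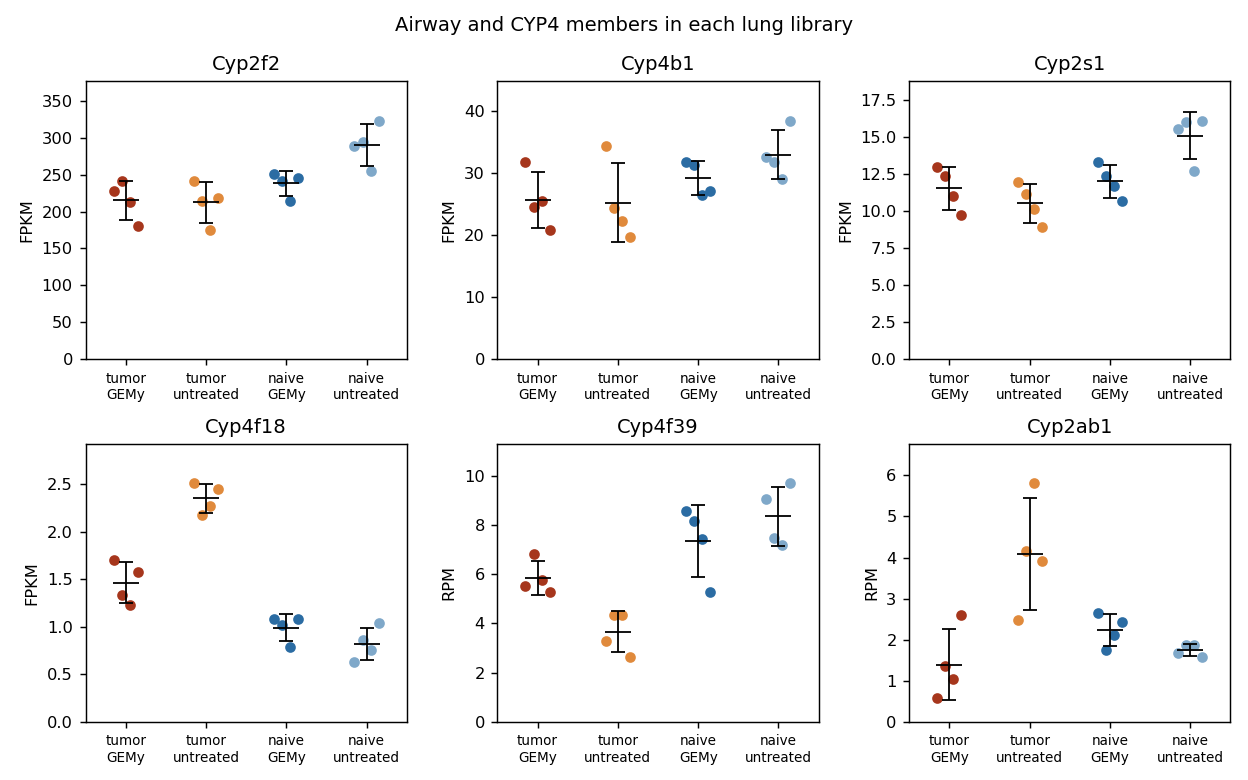
Level of 3 airway enzymes and 3 genes whose change with IL12-GEMy cells differed by tumor, in each lung, in FPKM or RPM as marked. Points are libraries, the horizontal mark is the mean and the bar 1 SD (n = 4). Cyp2f2 and Cyp2s1 have their highest mean in naive_untreated lungs, and Cyp4f18 and Cyp2ab1 have their highest mean in tumor_untreated lungs.

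The second comparison asks what IL12-GEMy cells did in lungs of mice without tumor. None of the 22 members passed (limma, FPKM), against 7.1% of all genes tested in either direction, and 4 had an unadjusted p under 0.05. None of the 14 on RPM passed either, against 6.69% of all genes, with 1 at an unadjusted p under 0.05. Cyp1a1 had 2.32, 2.08, 1.92 and 2.02 FPKM in naive_GEMy lungs, against the naive_untreated values given above. Of the naive_untreated lungs, 1 fell within the naive_GEMy range, and the log2 fold change was -0.42 ± 0.18 (SE), adjusted p = 0.203 (limma). Cyp1a1 passed when the 8 naive lungs were fitted alone (adjusted p = 0.0374) and without tumor_untreated 1 (adjusted p = 0.0445). Ahr had 2.53, 2.97, 3.40 and 3.44 FPKM in naive_GEMy lungs (log2 -0.33, SE 0.14, adjusted p = 0.199, limma), with 2 of the 4 above the lowest naive_untreated lung.

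Cyp2s1 had the smallest adjusted p of this comparison. It had 13.3, 12.4, 11.7 and 10.7 FPKM in naive_GEMy lungs, and its log2 fold change was -0.32 ± 0.11 (SE), adjusted p = 0.0914 (limma). It passed with the 8 naive lungs alone (adjusted p = 0.0444) and without naive_untreated 3 (adjusted p = 0.0419). Cyp2f2 had 252, 241, 214 and 246 FPKM in naive_GEMy lungs, all 4 of them below every naive_untreated lung, and a log2 fold change of -0.28 ± 0.11 (SE), adjusted p = 0.153 (limma). Club cell markers summed to 5825 to 7241 FPKM in naive_GEMy lungs, also below every naive_untreated lung, and none of the 5 tested passed in limma, with 1 at an unadjusted p under 0.05. Cyp4b1 (log2 -0.17, SE 0.15, adjusted p = 0.576), Cyp2a5 (log2 -0.23, SE 0.21, adjusted p = 0.602) and Cyp2b10 (log2 -0.32, SE 0.26, adjusted p = 0.548) overlapped between the groups (limma). The remaining AHR axis genes and Por had log2 fold changes of -0.15 for Cyp1b1, -0.014 for Tiparp, -0.035 for Por and 0.13 for Ahrr on RPM (limma adjusted p = 0.516, 0.936, 0.909 and 0.627).

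The third comparison asks what IL12-GEMy cells did in lungs of mice with the leg tumor, and it shares the tumor_untreated lungs with the first. Of the 22 members on FPKM none rose and 2 fell, against 3% of all genes that rose and 3.72% that fell. Of the 14 on RPM 1 rose and 1 fell, against 2.42% and 2.81% of all genes. Cyp4f18 had 1.70, 1.33, 1.23 and 1.58 FPKM in tumor_GEMy lungs, every one of them below every tumor_untreated lung. Its log2 fold change was -0.54 ± 0.10 (SE), adjusted p = 0.00254 (limma), a call that held in all 24 alternatives. The neutrophil markers summed to 665 to 1948 FPKM in tumor_GEMy lungs. Against tumor_untreated lungs 2 of 6 passed as lower and 4 of 6 had an unadjusted p under 0.05 (limma), at a median log2 fold change of -0.82. The part of neutrophils in the fall of Cyp4f18 was not tested.

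Cyp4f16 had 1.19, 1.39, 1.19 and 1.34 FPKM in tumor_GEMy lungs and passed narrowly (log2 -0.29, SE 0.083, adjusted p = 0.0490, limma). Its call failed in 19 of 24 alternatives, and of the 16 fits without 1 library it passed only without tumor_untreated 1 or naive_GEMy 3 (adjusted p up to 0.155 in the others). Cyp2ab1 had 0.570, 1.37, 1.03 and 2.60 RPM in tumor_GEMy lungs, 3 of them below every tumor_untreated lung (log2 -1.34, SE 0.25, adjusted p = 0.00438, limma, RPM). Cyp4f39 had 5.51, 6.84, 5.75 and 5.29 RPM in tumor_GEMy lungs, all above every tumor_untreated lung (log2 0.63, SE 0.16, adjusted p = 0.0278, limma, RPM). The Cyp4f39 call failed without tumor_untreated 4 or tumor_GEMy 2 or 3 (adjusted p = 0.0774, 0.103 and 0.0585), and with the lungs of tumor-bearing mice alone both RPM calls failed (Cyp2ab1 0.0753, Cyp4f39 0.0776).

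The AHR axis did not pass this comparison. Cyp1a1 had 0.446, 0.694, 0.398 and 0.742 FPKM in tumor_GEMy lungs, overlapping the tumor_untreated lungs, with a log2 fold change of -0.41 ± 0.18 (SE), adjusted p = 0.215 (limma). Ahr had 1.95, 2.23, 2.05 and 3.49 FPKM in tumor_GEMy lungs, 1 of which stood above all tumor_untreated lungs (log2 0.0063, SE 0.14, adjusted p = 0.990, limma). Tiparp had 1.64, 1.67, 1.83 and 1.82 FPKM (log2 -0.12, SE 0.067, adjusted p = 0.356), Cyp1b1 1.47, 1.72, 1.72 and 2.36 FPKM (log2 0.17, SE 0.11, adjusted p = 0.458) and Por 8.03, 7.54, 7.41 and 7.00 FPKM (log2 -0.004, SE 0.12, adjusted p = 0.992) in tumor_GEMy lungs (limma). Ahrr had 0.326, 0.467, 0.424 and 0.592 RPM (log2 -0.16, SE 0.13, adjusted p = 0.594, limma, RPM). The airway enzymes did not pass either, at 228, 241, 213 and 180.2 FPKM for Cyp2f2 (log2 0.02, SE 0.11, adjusted p = 0.952, limma) and 13.0, 12.4, 11.1 and 9.75 FPKM for Cyp2s1 (log2 0.12, SE 0.11, adjusted p = 0.579, limma) in tumor_GEMy lungs.

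The fourth comparison sets tumor_GEMy lungs against naive_GEMy lungs and shows the tumor's difference when both groups received the cells. Cyp1a1 was again the member with the largest fall. Of the 22 members on FPKM 3 rose and 2 fell, against 4.03% of all genes that rose and 9.17% that fell. Of the 14 on RPM 1 rose and 1 fell, against 3.85% and 6.58%. The values of Cyp1a1 given above, at most 0.742 FPKM in tumor_GEMy lungs and at least 1.92 FPKM in naive_GEMy lungs, gave a log2 fold change of -1.28 ± 0.18 (SE), adjusted p = 0.000405 (limma), a call that held in all 24 alternatives. The log2 ratio of Cyp1a1 to the endothelial sum was -10.0 to -8.93 in tumor_GEMy lungs and -7.65 to -7.62 in naive_GEMy lungs. Ahr did not pass (log2 -0.31, SE 0.14, adjusted p = 0.152, limma), but did without tumor_GEMy 4 (log2 -0.47, limma adjusted p = 0.0194). Cyp2f2, Cyp2s1 and Cyp4b1, which fell in the first comparison, did not pass here or in any alternative (limma adjusted p 0.274 to 0.743, 0.513 to 0.969 and 0.217 to 0.724 over the alternatives). Tiparp passed only under median-of-ratios scaling (limma adjusted p = 0.0473). Cyp1b1, Por and, on RPM, Ahrr did not pass here or in any alternative.

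Cyp8b1 had 2.79, 2.07, 2.55 and 1.80 FPKM in tumor_GEMy lungs, all above the naive_GEMy lungs at 1.48, 1.10, 1.44 and 1.15 FPKM (log2 0.63, SE 0.11, adjusted p = 0.00229, limma). Cyp4f18 rose in this comparison as well, with 1.70, 1.33, 1.23 and 1.58 FPKM in tumor_GEMy lungs, 1.08, 1.02, 0.785 and 1.08 FPKM in naive_GEMy lungs and a log2 fold change of 0.39 ± 0.10 (SE), adjusted p = 0.0160 (limma). That call did not hold without tumor_GEMy 1 or naive_GEMy 3 (limma adjusted p = 0.0522 and 0.0504). The neutrophil markers rose for 6 of 6, with sums of 665 to 1948 FPKM in tumor_GEMy lungs and 47.6 to 90.7 FPKM in naive_GEMy lungs, and their part in the rise of Cyp4f18 was not tested. Cyp27a1, which hydroxylates the cholesterol side chain, had 0.743, 0.627, 0.637 and 0.719 FPKM in tumor_GEMy lungs and 1.13, 0.920, 0.955 and 0.876 FPKM in naive_GEMy lungs (log2 -0.31, SE 0.081, adjusted p = 0.0203, limma). The groups did not overlap, though the call did not hold without tumor_GEMy 2 or naive_GEMy 1 (adjusted p = 0.0548 and 0.0745). Cyp11a1 had 3.42, 2.33, 2.69 and 2.27 RPM in tumor_GEMy lungs, all above the naive_GEMy lungs at 1.08, 0.767, 0.808 and 1.76 RPM (log2 1.01, SE 0.27, adjusted p = 0.0249, limma, RPM). Its call failed without tumor_GEMy 1 or naive_GEMy 1, 2 or 3 (adjusted p 0.0625 to 0.0742). Cyp2j9 had 7.99, 8.37, 7.45 and 7.56 RPM in tumor_GEMy lungs, all below the naive_GEMy lungs at 9.58, 10.7, 9.88 and 9.69 RPM (log2 -0.33, SE 0.091, adjusted p = 0.0313, limma, RPM). Its call failed without tumor_GEMy 1, 3 or 4 or naive_GEMy 1, 2 or 3 (adjusted p 0.0604 to 0.091) and under median-of-ratios scaling (adjusted p = 0.0994).

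Cyp2e1, the ethanol-oxidising enzyme, had 1.68, 1.35, 2.09 and 4.30 FPKM in tumor_GEMy lungs and 0.999, 0.981, 1.40 and 1.04 FPKM in naive_GEMy lungs. Its log2 fold change was 0.74 ± 0.22 (SE), adjusted p = 0.0383 (limma), and without tumor_GEMy 4 it was 0.46 (limma adjusted p = 0.0611). The call also failed without tumor_GEMy 3 or naive_GEMy 1, 2 or 4 (adjusted p 0.0588 to 0.0975). The same library was high in genes of fat cells. Adipoq, the adiponectin gene, had 0.877, 0.869, 0.871 and 3.64 FPKM in tumor_GEMy lungs and 0.673, 0.714, 1.01 and 0.696 FPKM in naive_GEMy lungs, and the 5 adipocyte and mesothelial markers summed to 64.9 to 126 FPKM in tumor_GEMy lungs and 52.5 to 65.1 FPKM in naive_GEMy lungs. Most of the highest sum was Cfd, at 90.3 FPKM in tumor_GEMy 4. The mesothelial markers Msln and Upk3b averaged 15.3 ± 1.34 and 14.9 ± 0.518 FPKM in tumor_GEMy and 13.2 ± 1.25 and 15.1 ± 1.55 FPKM in naive_GEMy lungs. The part of fat tissue in the Cyp2e1 values was not tested.

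**Figure D4:**
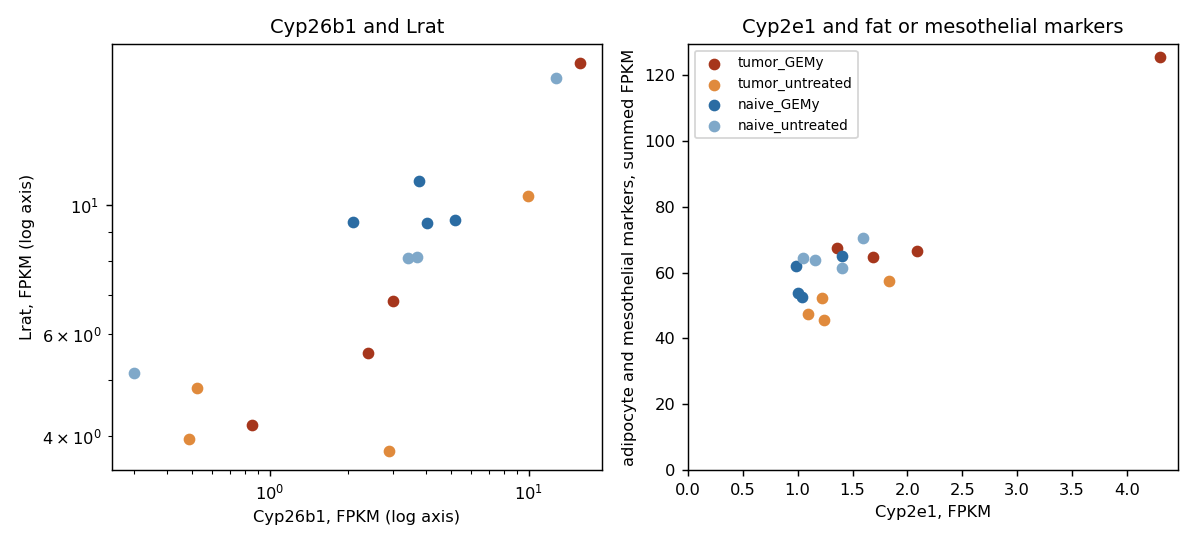
Cyp26b1 against Lrat (left, both in FPKM on log axes) and Cyp2e1 against the summed FPKM of adipocyte and mesothelial markers (right). Each point is 1 of the 16 lungs, colored by group. Cyp26b1 runs from 0.299 to 15.8 FPKM with Lrat along with it. The single lung at 4.30 FPKM of Cyp2e1 has a marker sum of 126 FPKM, of which Cfd is 90.3 FPKM.

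Cyp26b1, which breaks down retinoic acid, had the largest coefficient of variation within a group of the 22 members tested on FPKM. It had 2.40, 0.855, 2.98 and 15.8 FPKM in tumor_GEMy lungs and 2.89, 9.89, 0.524 and 0.489 FPKM in tumor_untreated lungs. It had 4.04, 5.20, 2.10 and 3.75 FPKM in naive_GEMy lungs and 12.7, 3.40, 0.299 and 3.69 FPKM in naive_untreated lungs. Its highest value was 52.8 times its lowest over the 16 lungs, and no comparison passed (tumor_untreated against naive_untreated log2 -0.57, SE 0.90, adjusted p = 0.632, limma). Of the 10283 other genes tested, the one whose log2 level followed Cyp26b1 most closely over the 16 lungs was Lrat, which stores retinol as esters, with Pearson r of 0.853 and Spearman rho of 0.841. Without the 2 lungs farthest from the Cyp26b1 median r was 0.823 (n = 14), and the second gene, Slc2a4, was at 0.712. The coefficients describe lungs that share groups and dissection, and Cyp26b1 was singled out after its values were seen.

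The fifth test asks whether the difference made by IL12-GEMy cells depended on the tumor. On FPKM 1 of 22 members passed, and it was lower, against 6.26% of all genes in either direction, with 4 at an unadjusted p under 0.05. On RPM 1 of 14 was higher and 1 lower, against 4.97%. Cyp4f18 differed by -0.72 ± 0.14 (SE), adjusted p = 0.00562 (limma): its log2 change with the cells was -0.54 in lungs of tumor-bearing mice and 0.18 in naive lungs. Cyp2ab1 differed by -1.61 ± 0.36 (SE), adjusted p = 0.0137 (limma, RPM), with -1.34 in lungs of tumor-bearing mice and 0.27 in naive lungs. Both calls held in every alternative that could be run. Cyp4f39 differed by 0.81 ± 0.23 (SE), adjusted p = 0.0473 (limma, RPM), with 0.63 in lungs of tumor-bearing mice and -0.18 in naive lungs. In the fits without 1 library, the Cyp4f39 call held only without tumor_untreated 1, 2 or 3, tumor_GEMy 4, naive_GEMy 1 or naive_untreated 3 (adjusted p up to 0.104 in the others). Cyp1a1 did not pass (log2 0.0079, SE 0.25, adjusted p = 0.991), nor did Ahr (log2 0.34, SE 0.20, adjusted p = 0.376), Tiparp (log2 -0.11, SE 0.10, adjusted p = 0.580), Cyp1b1 (log2 0.32, SE 0.16, adjusted p = 0.288) or Por (log2 0.031, SE 0.16, adjusted p = 0.942), by limma on FPKM, or Ahrr (log2 -0.29, SE 0.19, adjusted p = 0.437) on RPM. Cyp2s1 (log2 0.44, SE 0.15, adjusted p = 0.103, limma) passed without tumor_untreated 1 or naive_untreated 3 (adjusted p = 0.0396 and 0.0478). An adjusted p above the threshold does not show that the difference was absent.

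**Figure D5:**
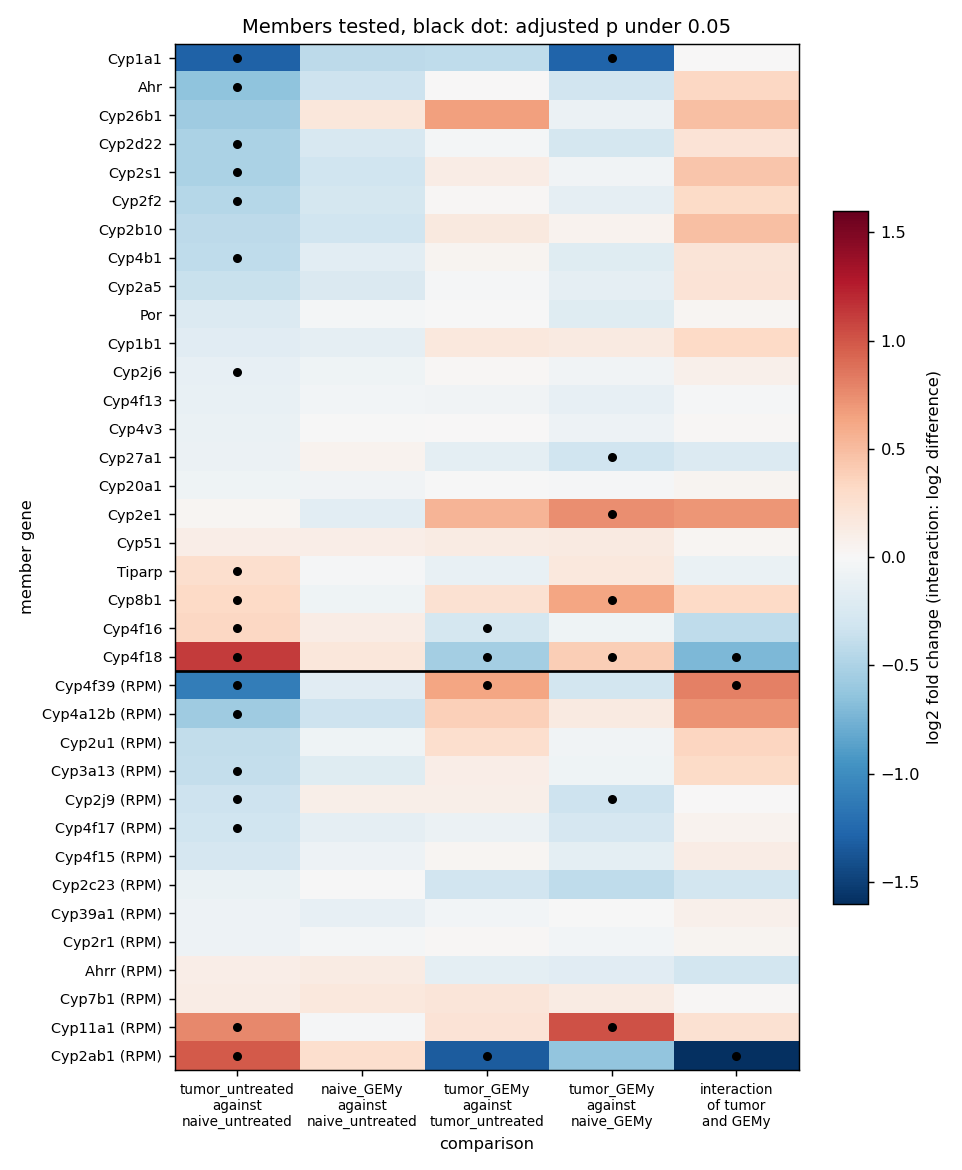
Log2 fold change of the 36 tested members (rows, the upper 22 on FPKM and the lower 14 on RPM, each ordered by the first column) in 5 comparisons (columns). Red is higher and blue lower in the group named first. In the last column they mark a change with the cells that was more positive or more negative in lungs of tumor-bearing mice. A black dot marks an adjusted p under 0.05 (limma). The first column holds 18 dots, and the second holds none.

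The genes that work with the P450 enzymes gave a wider view. Of 6 AHR partners such as Arnt, 5 were tested on FPKM and none passed in any of the 5 comparisons (limma), with at most 1 at an unadjusted p under 0.05 in each. Of the AHR gene battery outside the P450 genes 4 of 7 were tested, and in tumor_untreated against naive_untreated lungs 1 rose and 3 fell, where 16.9% of all genes rose and 27.2% fell. The one that rose was Nfe2l2, the oxidative stress factor (log2 0.42, SE 0.073, adjusted p = 0.000343, limma). Aldh3a1, an aldehyde dehydrogenase, averaged 2.26 ± 0.379 FPKM in tumor_untreated lungs and 3.36 ± 0.272 FPKM in naive_untreated lungs (SD, n = 4 each, log2 -0.49, SE 0.10, adjusted p = 0.00165 by limma). Of 4 tested nuclear receptors of P450 genes, of 12 sought, 1 fell, Rxra (log2 -0.15, SE 0.053, adjusted p = 0.0325, limma). The Rxra call did not hold without tumor_untreated 2 or 4 or naive_untreated 2, 3 or 4, or under median-of-ratios scaling (adjusted p up to 0.255).

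Of the electron carriers and heme genes 15 of 16 were tested, and 2 rose and 6 fell in tumor_untreated against naive_untreated lungs, where 16.9% of all genes rose and 27.2% fell. Hmox1, which degrades heme, averaged 14.5 ± 2.58 FPKM in tumor_untreated lungs and 6.67 ± 0.421 FPKM in naive_untreated lungs (SD, n = 4 each), and its log2 fold change was 1.05 ± 0.10 (SE), adjusted p = 9.74e-07 (limma). It averaged 7.23 ± 0.556 FPKM in tumor_GEMy lungs (log2 -0.95, SE 0.10, adjusted p = 4.88e-05 against tumor_untreated, limma) and 6.78 ± 0.236 FPKM in naive_GEMy lungs. Its interaction was -0.97 ± 0.14 (SE), adjusted p = 0.00186 (limma). Cyb5r3, the cytochrome b5 reductase, fell in the first comparison (log2 -0.32, SE 0.088, adjusted p = 0.00927, limma). Erythroid markers summed to 487 to 3843 FPKM in tumor_GEMy, 874 to 9666 FPKM in tumor_untreated, 157 to 508 FPKM in naive_GEMy and 292 to 2243 FPKM in naive_untreated lungs. The 5 tested monocyte and macrophage markers, of 6 sought, rose for 5 of 5 in tumor_untreated lungs, and the 6 summed to 81.2 to 153 FPKM there and 42.4 to 54.5 FPKM in naive_untreated lungs. They summed to 100 to 130 FPKM in tumor_GEMy and 83.5 to 109 FPKM in naive_GEMy lungs. Of the 5 tested, 3 rose in naive_GEMy against naive_untreated lungs (limma). In tumor_GEMy against tumor_untreated lungs 1 passed as lower and 4 had an unadjusted p under 0.05 (limma). In the interaction 5 of 5 passed as lower, at a median log2 of -0.98, against 6.26% of all genes in either direction (limma). Of the 5 erythroid markers 0 passed the interaction. The part of either marker set in the Hmox1 values was not tested.

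Of 18 tested genes for other xenobiotic enzymes, of 19 sought, none rose and 14 fell in tumor_untreated against naive_untreated lungs, where 27.2% of all genes fell, with a median log2 fold change of -0.33, against -0.048 for all genes. Their summed FPKM was 230.2 to 318 in tumor_untreated and 318 to 347 in naive_untreated lungs, and tumor_untreated 1, the highest of its group, reached the naive_untreated range. Markers of lung cells fell in the same comparison, for 5 of 5 tested club cell, 5 of 6 alveolar type 2, 4 of 7 endothelial and 4 of 5 fibroblast markers. The fibroblast markers summed to 93.8 to 151 FPKM in tumor_untreated and 183 to 265 FPKM in naive_untreated lungs. Of the alveolar type 1 markers 2 of 5 passed as lower, while all 5 had an unadjusted p under 0.05 (limma), at a median log2 fold change of -0.54. They summed to 292 to 801 FPKM in tumor_untreated and 824 to 988 FPKM in naive_untreated lungs. Of the tested alveolar macrophage markers 0 of 4 passed, at a median of -0.041. The part of any of these cell types in the falls of the xenobiotic enzymes was not tested. Ephx1, the microsomal epoxide hydrolase, averaged 5.80 ± 0.930 FPKM in tumor_untreated lungs and 8.81 ± 0.884 FPKM in naive_untreated lungs (SD, n = 4 each, log2 -0.57, SE 0.089, adjusted p = 0.000132 by limma). Fmo1, a flavin monooxygenase, averaged 8.95 ± 1.64 FPKM in tumor_untreated lungs and 12.9 ± 0.752 FPKM in naive_untreated lungs (log2 -0.52, SE 0.10, adjusted p = 0.000718 by limma). Fmo1 also fell in naive_GEMy against naive_untreated lungs (log2 -0.47, SE 0.10, adjusted p = 0.00694, limma). It was the only one of the 18 to pass there, against 7.1% of all genes in either direction. Of the 18, 7 had an unadjusted p under 0.05 (limma). The median log2 fold change of the 18 was -0.20, against -0.016 for all genes. Of the 4 tested genes of the AHR battery 1 passed in that comparison and 3 had an unadjusted p under 0.05 (limma). The glucuronyl transferase Ugt1a6a was the gene that passed, and it fell (log2 -0.17, SE 0.047, adjusted p = 0.0412, limma). Its call failed without tumor_untreated 2, tumor_GEMy 2 or any one of the 8 naive libraries (adjusted p up to 0.11).

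In tumor_GEMy against tumor_untreated lungs no xenobiotic enzyme passed in limma, with 3 of 18 at an unadjusted p under 0.05, and Nfe2l2 fell (log2 -0.26, SE 0.073, adjusted p = 0.0402, limma) in a call that failed in 13 of 24 alternatives. Of its 16 fits without 1 library it held without tumor_untreated 1, tumor_GEMy 4, naive_GEMy 1, 2 or 3 or naive_untreated 1 or 4 (adjusted p up to 0.12 in the others). In tumor_GEMy against naive_GEMy lungs 5 of 18 xenobiotic enzymes fell, against 9.17% of all genes, led by Ephx1 (log2 -0.32, SE 0.089, adjusted p = 0.0270) and the glutathione transferase Gstm1 (log2 -0.30, SE 0.092, adjusted p = 0.0436), and Nqo1 of the AHR battery fell (log2 -0.17, SE 0.053, adjusted p = 0.0407), all by limma. These 3 calls failed without naive_GEMy 1, naive_GEMy 2 or tumor_GEMy 1, 2 or 3 and under median-of-ratios scaling (adjusted p up to 0.147), those of Gstm1 and Nqo1 also without tumor_GEMy 4, naive_GEMy 4 or naive_untreated 2, and that of Gstm1 without naive_untreated 1 or 3. The interaction passed for 1 of 18 xenobiotic enzymes, against 6.26% of all genes in either direction. It was Aldh1a7 (log2 0.43, SE 0.12, adjusted p = 0.0453, limma), in a call that failed in 13 of 16 fits without 1 library and held without tumor_untreated 1 or 4 or naive_untreated 3. The lists and their genes were chosen with earlier results of these data known.

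The single library of the cell product held a different set of these genes. With no replicate, the spread between preparations is unknown, and the intervals given here cover counting error only. Of the 54 members 16 had no read there and 12 exceeded 5 RPM. Cyp51 stood at 321 RPM in the product (exact Poisson 95% interval 315 to 327), against 37.5 to 60.9 RPM in the 16 lungs. Cyp4f16 stood at 86.0 RPM in the product (exact Poisson 95% interval 82.8 to 89.3), against 17.3 to 30.7 RPM in the lungs. Cyp11a1 stood at 19.3 RPM in the product (exact Poisson 95% interval 17.8 to 20.9), against 0.573 to 4.13 RPM in the lungs. Ahrr stood at 15.9 RPM in the product (exact Poisson 95% interval 14.6 to 17.4), against 0.303 to 0.668 RPM in the lungs, and Cyp4f37 at 11.3 RPM in the product (exact Poisson 95% interval 10.1 to 12.5), against 0.0344 to 0.333 RPM in the lungs. Tiparp stood at 54.9 RPM in the product (exact Poisson 95% interval 52.3 to 57.6), against 36.1 to 56.1 RPM in the lungs. Ahr stood at 9.13 RPM in the product (exact Poisson 95% interval 8.10 to 10.3), against 72.1 to 182 RPM in the lungs. Cyp1a1 had 1 read in the product and Cyp2f2 had none.

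Cyp4f37, Ahrr and Cyp11a1 were the 3 members above 5 RPM in the product and over 8 times their lung mean. Cyp4f37 was at 0.0621 to 0.170 RPM in tumor_GEMy and 0.123 to 0.333 RPM in tumor_untreated lungs, and at 0.0344 to 0.223 RPM in naive_GEMy and 0.103 to 0.185 RPM in naive_untreated lungs. These values rest on 1.02 to 9.19 reads per lung, and Cyp4f37 was not tested, so an overlap of its ranges says little. Ahrr was at 0.326 to 0.592 RPM in tumor_GEMy and 0.483 to 0.616 RPM in tumor_untreated lungs, and at 0.460 to 0.668 RPM in naive_GEMy and 0.303 to 0.598 RPM in naive_untreated lungs. Cyp11a1 was at 2.27 to 3.42 RPM in tumor_GEMy and 1.27 to 4.13 RPM in tumor_untreated lungs, and at 0.767 to 1.76 RPM in naive_GEMy and 0.573 to 1.70 RPM in naive_untreated lungs. For all 3 genes the range of each treated group overlapped that of its untreated group, while Cyp11a1 was higher in tumor_GEMy than in naive_GEMy lungs, as given above.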

How the data were processed

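The authors deposited 1 table of FPKM for 18262 genes in 17 libraries. Per the submitters' processing notes it was made with STAR 2.7.3a and Partek on mm10; the annotation, strand setting and settings are not given in the sources used here. Per the labels, RNA came from flash frozen lung through TRIzol. FPKM times gene span over 1000 summed to 1000000 in every column, so the deposited FPKM were turned back into RPM and reads; below 1000 reads, 86.7 to 88.4% of the values came out whole (tolerance 0.02). The columns were mapped to samples by their names, and no 2 libraries were identical. Exon lengths came from the GENCODE annotation of GRCm38.

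limma 3.58.1 (R 4.3.3) fitted 4 group means to all 16 lungs on log2(FPKM + 0.5) with trended, robust variances; RPM were fitted likewise. Tested on simulated data of 10010 genes for tumor_untreated against naive_untreated, 90% of 1.5-fold and 99% of 2-fold changes were called, with 12 false calls. The values were drawn independently for each gene, and 100 changes of each size were planted. They were planted only in genes whose mean log2(FPKM + 0.5) in naive_untreated lungs was above 1. The rates therefore do not cover lower members such as Cyp4f18. Alternatives were pseudocounts of 0.1 and 1, no minimum and a minimum of 1 FPKM, RPM, median-of-ratios scaling, only the compared groups, a replicate block, and each library left out.

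Members, lists and tests were chosen with earlier results of these data known. Named are the AHR axis genes and Por, up to 6 rises and 6 falls past the threshold per comparison (4 on RPM), the 5 largest interactions on each side, the 6 members of highest mean FPKM, and 2 genes per pathway list and comparison; marker lists are given by counts and sums. Intervals cover counting error only.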

Additional observations from a re-analysis of the deposited data

Results flagged for a closer look

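The search covered 30 members, which were the 22 tested on FPKM and those named on RPM. In these members and 4 groups, 120 sets of 4 lungs were searched for a library far from the other 3 by Dixon's criterion, and 6 were found where chance gives about 1 in 20, or 6. In naive_untreated lungs, replicate 3 was the low one for Cyp1a1, at 2.12 FPKM, and for Cyp2s1, at 12.7 FPKM. In tumor_GEMy lungs, replicate 4 was the high one for Cyp26b1, at 15.8 FPKM. In naive_GEMy lungs, replicate 3 was high for Cyp2e1, at 1.40 FPKM, and low for Cyp4f16, at 1.13 FPKM, and replicate 1 was high for Por, at 9.65 FPKM.

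The log2 difference made by IL12-GEMy cells differed between lungs of tumor-bearing and naive mice by -0.72 for Cyp4f18 (FPKM), by -1.61 for Cyp2ab1 and by 0.81 for Cyp4f39 (both RPM), each past the threshold of the interaction test in limma.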

How the results depend on the processing

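Over 84 values of named members and 23 or 24 alternatives where each could be run, 1819 of 1977 kept direction and side of the threshold, 90 lost the call, 14 gained it and 54 changed sign. Of the 22 members on FPKM, tumor_untreated against naive_untreated gave 11 calls, 17 with no minimum and 18 on RPM, where more members were tested, and 9 to 16 with 1 library left out. For naive_GEMy against naive_untreated it was 0 calls, 3 with only the compared groups, 1 with the replicate block and 0 to 1 with 1 library out. For tumor_GEMy against tumor_untreated it was 2 calls, 1 with a pseudocount of 0.1, median-of-ratios scaling or only the compared groups, and 1 to 2 with 1 library out. For tumor_GEMy against naive_GEMy it was 5 calls, and 3 to 6 with 1 library out, 3 being without naive_GEMy 1. For the interaction it was 1 call, 2 with a pseudocount of 0.1, no minimum, a minimum of 1 FPKM or median-of-ratios scaling, 3 on RPM, 3 with the replicate block, and 1 to 3 with 1 library out. Unless fewer genes or samples are part of the alternative, the cause was not tested. The labels do not say whether replicate numbers pair the lungs. Residuals of same-numbered libraries correlated at -0.31 to 0.35, and in no comparison were all above 0.1. They ran over 0.089 to 0.26 in tumor_GEMy against tumor_untreated and 0.030 to 0.35 in tumor_GEMy against naive_GEMy lungs. With 4 values per comparison, these cannot settle whether same-numbered lungs share a batch. With the block, Cyp2s1 passed in naive_GEMy against naive_untreated (adjusted p = 0.0225) and in the interaction (0.0269).

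Every change of sign was in an uncalled value. Under median-of-ratios scaling Tiparp was 0.0092 in naive_GEMy against naive_untreated, Por was 0.0089 in tumor_GEMy against tumor_untreated, and Cyp2s1 was 0.010 in tumor_GEMy against naive_GEMy. The Cyp1a1 interaction was -0.12 with a pseudocount of 0.1, -0.16 on RPM and -0.016 under that scaling. With 1 library out, log2 values ran over -0.061 to 0.026 for Tiparp, -0.16 to 0.053 for Por and -0.55 to 0.80 for Cyp26b1 in naive_GEMy against naive_untreated. In tumor_GEMy against tumor_untreated they ran over -0.15 to 0.083 for Ahr, -0.059 to 0.072 for Por, -0.069 to 0.10 for Cyp2f2, -0.065 to 0.20 for Cyp4b1, -0.13 to 0.18 for Cyp2a5, -0.10 to 0.45 for Cyp2b10 and -0.030 to 1.36 for Cyp26b1. In tumor_GEMy against naive_GEMy they ran over -0.12 to 0.015 for Cyp2s1, -0.27 to 0.014 for Cyp2a5, -0.10 to 0.20 for Cyp2b10 and -0.78 to 0.41 for Cyp26b1, and in tumor_untreated against naive_untreated over -1.30 to 0.053 for Cyp26b1. The interaction ran over -0.095 to 0.22 for Cyp1a1 and -0.057 to 0.16 for Por. Median-of-ratios scaling moved the median log2 value of all genes by at most 0.0705, and Tiparp then passed in tumor_GEMy against naive_GEMy (limma adjusted p = 0.0473). Depth limits the low members: the 18 untested ones had at most 0.745 RPM in any lung.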
